A study of Mus musculus with 7 samples.

Results

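Glutamate receptors and the postsynaptic scaffolds that hold them are described here in embryonic mouse retina with and without *Ptbp1*. The set holds 46 genes, taken by name from the 48440 genes of the count table: the subunits of AMPA, kainate and NMDA receptors, the metabotropic glutamate receptors, the MAGUK, Shank, Homer and Dlgap scaffolds, the kinase CaMKII, adhesion proteins of the synaptic cleft, and gephyrin. All 46 passed the filter on low counts and were among the 20019 genes tested.

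Bulk RNA-seq was performed on E16 mouse retina in 7 libraries. The 1 WT library is labelled Chx10Cre, the 3 Het libraries carry Chx10-Cre;Ptbp1lox/WT, and the 3 KO libraries carry Chx10-Cre;Ptbp1lox/lox, so that each group by its label carries Chx10-Cre. Cre is driven by the *Chx10* promoter in retinal progenitors, and cells that never expressed it keep *Ptbp1*. Each library was made from frozen retinas pooled within a genotype, so p-values measure the spread between pools. The single WT pool has no replicate and is compared in no test, though it was part of the filter, the normalization and the fit.

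Glutamate is the main excitatory transmitter of the retina, which photoreceptors and bipolar cells release onto their partners. AMPA, kainate and NMDA receptors are ion channels built of 4 subunits each, while metabotropic receptors signal through G proteins. Behind the membrane, MAGUK proteins bind receptor tails, Dlgap proteins tie them to Shank, and Homer ties Shank to metabotropic receptors. At E16 the retina still holds many progenitors, and its synapses are only beginning to form.

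The libraries held 120593979 to 171117305 counts on genes, and a member had between 88 and 42276 counts in a library. *Ptbp1*, an RNA-binding protein that represses neuronal splicing, stood at 381.1 CPM (a gene's counts divided by its library's TMM-normalized total and scaled alike in each library) in WT, at 210.3, 218.6 and 233.8 in Het1 to Het3, and at 27.9, 6.04 and 46.9 in KO1 to KO3. Its KO mean was 12.2% of the Het mean (log2 fold change -3.04, SE 0.64, edgeR adjusted p = 0.0316), and KO3 kept the most. Without Het1, Het2, Het3 or KO1 in turn, its edgeR adjusted p was 0.0519, 0.0964, 0.0935 and 0.0744, at log2 fold changes of -3.07, -3.04, -2.99 and -3.06.

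Receptor and scaffold genes were more often higher than lower in KO retinas. Compared with Het, 13 of the 46 genes were called higher and 0 lower: *Gria2*, *Gria4*, *Grik2*, *Grik3*, *Grin2a*, *Grin2b*, *Grm5*, *Dlg2*, *Shank1*, *Camk2d*, *Nlgn3*, *Nrxn3* and *Lrrtm1*. A gene was called at an edgeR adjusted p below 0.05 over all genes tested and an absolute log2 fold change above 0.263, which is 1.2-fold. That is 28.3% of the members, where 4.01% of all genes tested were called higher, 3.21% lower and 7.22% in either direction. The rises were moderate, from 1.22-fold for *Gria4* to 1.90-fold for *Grin2b*. In bulk RNA, fewer or more cells of a type and a change of RNA per cell cannot be told apart.

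Most members, called or not, had a higher mean in KO. Of the 46 log2 fold changes, 38 were above 0 and 8 below, with a median of 0.26, while the median over all genes tested was -0.0047 and 49.0% of them were above 0. In 32 members (69.6%) the ranges of the Het and the KO libraries were disjoint, 28 with KO above Het and 4 with KO below, against 36.3% of all genes tested. The smallest p that an exact two-sided permutation test allows for 3 pools in each group is 0.1. At the adjusted p alone, 17 members were higher, against 5.78% of all genes tested. The 4 added were *Shank2*, *Homer2*, *Lrrtm2* and *Gphn*, of which *Lrrtm2* at a log2 fold change of 0.262 missed the fold limit by the smallest margin. At an unadjusted edgeR p below 0.05, 29 members were higher and 3 lower (*Dlg1*, *Homer3* and *Grin2c*), where 15.1% of all genes tested were higher and 14.6% lower. DESeq2 called 20 members higher and 0 lower, against 6.1% and 5.77% of the genes it tested. Its 20 held the 13 above with *Grin1*, *Grin2d*, *Grin3a*, *Grm3*, *Grm8*, *Dlgap1* and *Camk2b*.

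Single pools weighed on the number of calls. Without Het2 or without Het3, 6 members were called higher, without KO2 8, without Het1 or without KO1 11, and without KO3 20. *Gria2*, *Grik3*, *Grin2b* and *Dlg2* were called in all 15 alternative settings, including glmTreat, which tests against the fold limit itself. Among the 13 called genes KO3 was the lowest KO library in 9 and the highest in 0. KO3 also kept the most *Ptbp1*, and the part of that in the smaller values was not tested. The single WT library lay within the range of the Het libraries in 8 of the 13, below all Het and KO libraries in 4 (*Grik3*, *Grin2b*, *Grm5* and *Nlgn3*), and within the KO range in 1 (*Nrxn3*).

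**Figure D1:**
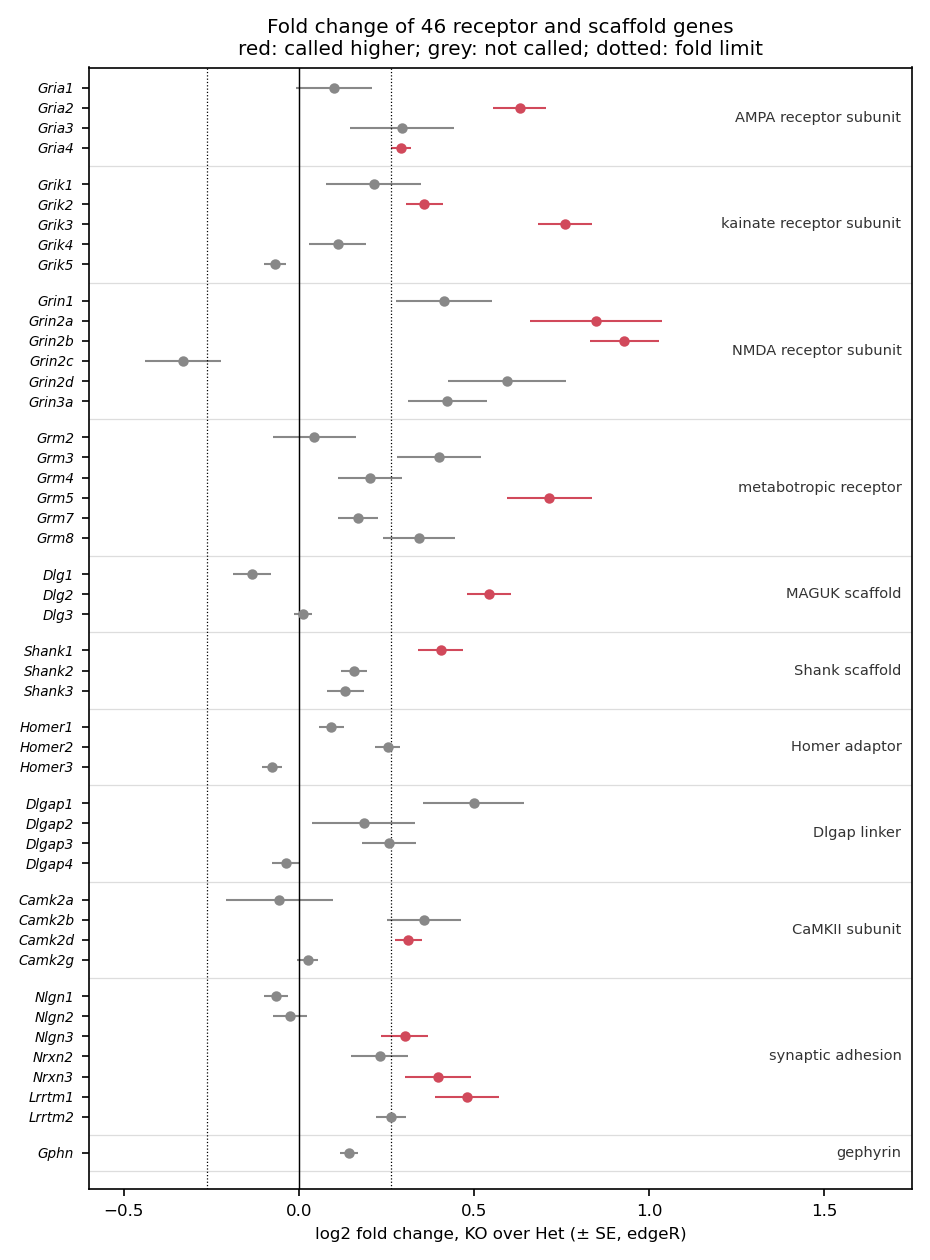
Log2 fold change of KO over Het for each of the 46 genes, grouped by role, with the standard error from edgeR as horizontal bars and the fold limit of 0.263 as dotted lines. The 13 red points are the genes called higher, and 8 points lie left of 0, with *Grin2c* the lowest at -0.33.

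AMPA receptors carry the fast excitatory current, and *Gria2* encodes the subunit that blocks calcium entry. *Gria2* stood at 14.1 CPM in WT, at 15.9, 14.8 and 13.1 in Het1 to Het3, and at 22.6, 23.0 and 22.1 in KO1 to KO3. All KO libraries lay above all others, and *Gria2* rose from 14.6 ± 1.41 to 22.6 ± 0.471 CPM (SD, n = 3 each; log2 fold change 0.63, SE 0.08, edgeR adjusted p = 0.00774). *Gria4*, a subunit expressed early in development, had the highest level per length of the AMPA subunits, at 9.30 CPM per kb of exon in Het. It stood at 58.4 CPM in WT, at 58.4, 59.7 and 57.8 in Het, and at 72.6, 72.8 and 69.8 in KO. The WT and Het libraries were nearly level and the KO libraries above them (log2 fold change 0.29, SE 0.03, edgeR adjusted p = 0.00514). *Gria1* and *Gria3* were not called and their Het and KO libraries overlapped. *Gria1* had a log2 fold change of 0.10, which was -0.01 without KO3.

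Kainate receptors pair the pore-forming subunits of *Grik1* to *Grik3* with the high-affinity subunits of *Grik4* and *Grik5*. *Grik3* stood at 28.9 CPM in WT, at 36.2, 32.9 and 30.9 in Het, and at 61.6, 52.5 and 55.3 in KO. WT was the lowest and the KO libraries the highest, and *Grik3* rose from 33.4 ± 2.69 to 56.4 ± 4.64 CPM (SD, n = 3 each; log2 fold change 0.76, SE 0.08, edgeR adjusted p = 0.00558). *Grik2* stood at 19.9 CPM in WT, at 18.7, 20.2 and 18.7 in Het, and at 23.5, 25.3 and 24.9 in KO. KO lay above WT and Het (log2 fold change 0.36, SE 0.05, edgeR adjusted p = 0.0126), and the adjusted p was 0.0562 without Het3 and 0.0505 without KO2. *Grik5* was by far the most abundant kainate subunit per length, at 23.7 CPM per kb in Het. It stood at 114.4 CPM in WT, at 122.8, 120.9 and 123.6 in Het, and at 119.0, 118.7 and 113.0 in KO. The Het libraries lay just above the KO libraries and WT lay among the KO libraries, and *Grik5* was not called (log2 fold change -0.07, SE 0.03, edgeR adjusted p = 0.205). *Grik1* and *Grik4* overlapped between Het and KO. *Grik1* was higher in the WT library, at 3.36 CPM, than in any Het or KO library, which reached at most 2.69.

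The bases upstream of *Gria2* and *Grik3* are shown because both genes were called in all alternatives and the RefSeq promoter table (build GRCm38.p6) holds a single start for each. They are the 250 bases before the start, read in the direction of the gene, at chr3:80802836-80803085 (minus strand) for *Gria2* and chr4:125490446-125490695 (plus strand) for *Grik3*. Capitals mark the GC box (GGGCGG, the letters bound by Sp-family factors) and GGACAG, each searched on both strands. GGACAG is a part of the motif of the neuronal-gene repressor REST.
Gria2: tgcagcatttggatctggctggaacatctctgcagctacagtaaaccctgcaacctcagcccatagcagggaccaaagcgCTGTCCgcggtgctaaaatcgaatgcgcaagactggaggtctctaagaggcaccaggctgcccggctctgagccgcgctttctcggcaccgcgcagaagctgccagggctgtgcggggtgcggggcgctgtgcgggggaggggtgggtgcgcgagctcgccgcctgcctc
Grik3: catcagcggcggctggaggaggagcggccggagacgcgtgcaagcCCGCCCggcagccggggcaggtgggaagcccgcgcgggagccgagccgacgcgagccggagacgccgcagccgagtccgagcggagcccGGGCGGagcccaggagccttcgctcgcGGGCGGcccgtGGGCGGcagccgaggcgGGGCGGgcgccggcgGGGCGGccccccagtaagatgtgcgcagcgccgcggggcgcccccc

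The *Gria2* window is 64.8% G and C and holds 0 GC boxes and 1 GGACAG, which begins 170 bases before the start on the opposite strand. The *Grik3* window is 82% G and C and holds 6 GC boxes, the farthest beginning 205 and the nearest 46 bases before the start, and 0 matches to GGACAG. The table held 45 starts of 30 of the 46 members. A GC box lay in 20 of these 45 windows (44.4%), against 32.7% of the 32851 windows in the table, and in 2 of the 12 windows of called genes against 18 of the 33 windows of genes not called. GGACAG lay in 9 of the 45 (20%), against 18.7% of all windows. The full REST motif was not searched, so the bases around a GGACAG were not compared with it. Shares of windows with GGACAG therefore give no count of the full motif, and whether the *Gria2* match is part of one was not tested. CCAAT lay in 22.2% of the members' windows against 33.8% of all, and TATAAA in 6.67% against 12.4%. Several starts of 1 gene share sequence, so these shares are descriptions, and a match of letters is not a bound site.

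NMDA receptors join the obligatory glycine-binding subunit of *Grin1* with glutamate-binding subunits of *Grin2a* to *Grin2d*, and *Grin3a* lowers calcium flow. Per length they were the scarcest channels, with family sums of 3.13 CPM per kb in WT, 3.30 to 3.59 in Het, and 4.77, 4.70 and 3.72 in KO. *Grin2b*, the main glutamate-binding subunit of the forebrain before birth, stood at 4.99 CPM in WT, at 6.38, 6.02 and 5.42 in Het, and at 10.96, 12.5 and 10.46 in KO. The groups lay far apart with WT lowest, and *Grin2b* showed the largest fold change of the 46 genes, from 5.94 ± 0.483 to 11.3 ± 1.06 CPM (SD, n = 3 each; log2 fold change 0.93, SE 0.10, edgeR adjusted p = 0.00623). *Grin2a*, which in brain takes over from *Grin2b* after birth, stood at 1.12 CPM in WT, at 1.05, 0.739 and 1.17 in Het, and at 1.86, 1.76 and 1.70 in KO. The KO libraries agreed closely while Het2 was low (log2 fold change 0.85, SE 0.19, edgeR adjusted p = 0.0371). *Grin2a* rested on 88 to 179 counts in a Het library and 227 to 247 in a KO library, and lost its call without any single Het or KO library (adjusted p 0.0564 to 0.106) and with the replicate number as a block (adjusted p 0.0570).

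*Grin1*, the most abundant NMDA subunit per length, stood at 9.64 CPM in WT, at 11.3, 9.98 and 10.5 in Het, and at 16.5, 14.5 and 11.3 in KO. KO1 and KO2 lay well above Het while KO3 only just cleared Het1, and *Grin1* was not called (log2 fold change 0.41, SE 0.14, edgeR adjusted p = 0.102). *Grin2d* and *Grin3a* had log2 fold changes of 0.59 and 0.42 without overlap and were not called (adjusted p 0.0700 and 0.0583). In both, KO3 was the lowest KO library. *Grin2c* had the lowest log2 fold change of the 46, at -0.33 (SE 0.11, edgeR adjusted p = 0.0982). Its Het libraries, at 3.54 to 3.93 CPM, lay above all KO libraries, at 2.75 to 3.28 CPM.

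The mix of glutamate-binding NMDA subunits differed accordingly. Per length, *Grin2c* made up 51% ± 2.21 of the *Grin2* sum in Het and 33.3% ± 2.84 in KO, while *Grin2b* made up 16.6% ± 1.06 and 26.0% ± 1.77 (SD, n = 3 each). *Grin2d* took 28.5% and 35.0%, *Grin2a* took 3.84% and 5.68%, and in none of the 4 did the Het and KO libraries overlap. Shares of counts without the length gave 44.4% and 56.2% for *Grin2b* and 27.7% and 14.6% for *Grin2c*, while *Grin2d*, at 20.5% and 20.4%, and *Grin2a* then overlapped. Within the kainate family, *Grik3* took 12.1% ± 0.858 of the per-length sum in Het and 19.2% ± 1.22 in KO, and *Grik5* took 77.1% ± 0.910 and 69.0% ± 1.03. Among AMPA subunits *Gria4* kept the largest share, at 61.8% and 63.0% with overlap, and *Gria2* had 6.24% and 8.04% without. The WT shares of *Grin2b*, *Grin2c*, *Grik3* and *Gria2*, at 15.2%, 50.2%, 11.2% and 6.16%, lay within the Het range for *Grin2c* and *Gria2* and just below it for *Grin2b* and *Grik3*. These shares carry no test.

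**Figure D2:**
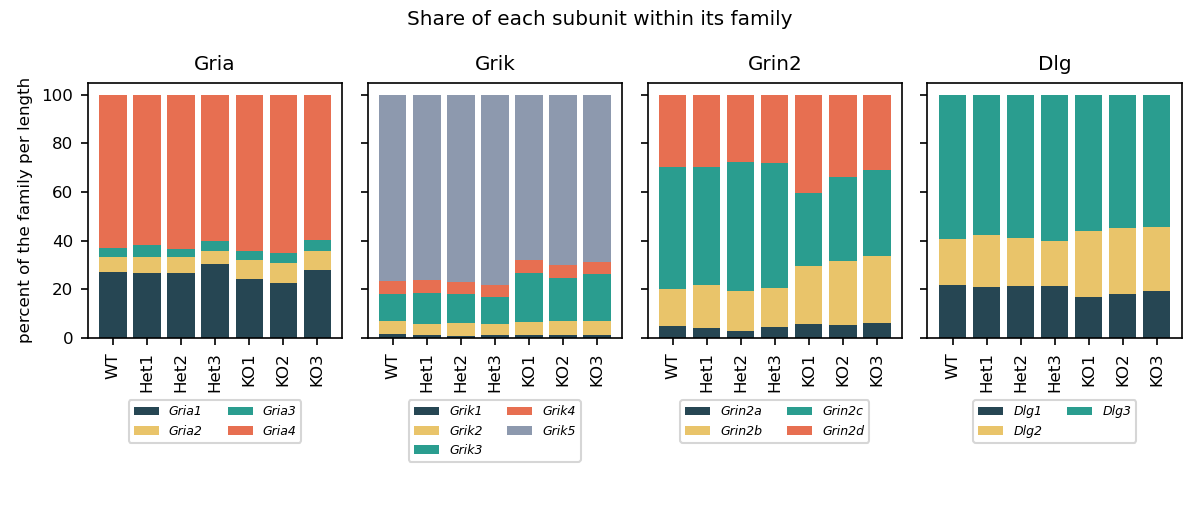
Share of each subunit in the per-length sum of its family (percent, stacked bars) in each of the 7 libraries. The families are *Gria*, *Grik*, *Grin2* and *Dlg*, each summed over the genes of the set alone. The *Grin2c* band narrows from 48.6% to 53.0% in Het to 30.1% to 35.5% in KO, and the *Grik3* and *Dlg2* bands widen.

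Metabotropic receptors fall into *Grm5*, which raises cell calcium through phospholipase C, and *Grm2*, *Grm3*, *Grm4*, *Grm7* and *Grm8*, which lower cyclic AMP. *Grm5* was the only one of the 6 called. It stood at 2.18 CPM in WT, at 2.57, 2.34 and 2.25 in Het, and at 4.37, 3.44 and 3.95 in KO. WT was lowest and the KO libraries highest (log2 fold change 0.72, SE 0.12, edgeR adjusted p = 0.0189), and the adjusted p was 0.0820 without Het2 and 0.0768 without Het3. *Grm7* was the most abundant per length, at 4.59 CPM per kb in Het. It stood at 28.3 CPM in WT, at 26.6, 27.5 and 27.0 in Het, and at 32.9, 29.4 and 28.8 in KO. Its Het and KO libraries did not overlap, with WT between them, and it was not called (log2 fold change 0.17, SE 0.06, edgeR adjusted p = 0.105). *Grm3* and *Grm8* had log2 fold changes of 0.40 and 0.34 without overlap and were not called (adjusted p 0.0808 and 0.0791). *Grm2* and *Grm4* overlapped, and *Grm2*, at a log2 fold change of 0.04, was at -0.03 without KO1 and at -0.0029 without KO2.

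MAGUK proteins are the slots into which receptor tails plug. *Dlg2*, which encodes PSD-93, stood at 76.6 CPM in WT, at 90.6, 82.0 and 75.99 in Het, and at 122.7, 120.6 and 118.8 in KO. The KO libraries were close together and far above the Het libraries, and *Dlg2* rose from 82.8 ± 7.32 to 120.7 ± 1.94 CPM (SD, n = 3 each; log2 fold change 0.54, SE 0.06, edgeR adjusted p = 0.00698). *Dlg3*, the most abundant of the 3 per length at 15.01 CPM per kb in Het, stood at 86.9 CPM in WT, at 87.1, 87.1 and 88.9 in Het, and at 89.7, 87.6 and 88.1 in KO. These 7 values were almost level (log2 fold change 0.01, SE 0.03, edgeR adjusted p = 0.780). *Dlg1* had Het libraries of 58.2 to 58.3 CPM and KO libraries of 49.3 to 57.3 CPM without overlap, and was not called (log2 fold change -0.13, SE 0.05, edgeR adjusted p = 0.154). The per-length share of *Dlg2* in the 3 was 19.9% ± 1.52 in Het and 27.0% ± 0.565 in KO (SD, n = 3 each). The set does not hold every MAGUK gene, so this is a share of the 3 alone.

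Shank proteins form the base layer of the postsynaptic density. *Shank1*, the most abundant per length at 6.60 CPM per kb in Het, stood at 67.7 CPM in WT, at 74.1, 65.6 and 68.4 in Het, and at 92.9, 97.4 and 85.1 in KO. KO lay above WT and Het (log2 fold change 0.40, SE 0.06, edgeR adjusted p = 0.0153), and the adjusted p was 0.0724 without Het2, 0.0641 without Het3 and 0.0559 without KO2. *Shank2* passed the adjusted p but not the fold limit (log2 fold change 0.16, SE 0.04, edgeR adjusted p = 0.0439), and *Shank3* passed neither (log2 fold change 0.13, adjusted p 0.149). In all 3 the KO libraries lay above the Het libraries.

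None of the 3 Homer and 4 Dlgap genes was called. *Homer3*, the most abundant Homer per length at 11.4 CPM per kb in Het, stood at 41.3 CPM in WT, at 38.4, 39.1 and 39.9 in Het, and at 37.6, 37.2 and 36.5 in KO. WT was highest and KO lowest over a narrow range (log2 fold change -0.08, SE 0.03, edgeR adjusted p = 0.139). *Homer2* was higher in KO at the adjusted p but under the fold limit (log2 fold change 0.25, SE 0.04, edgeR adjusted p = 0.0120), and *Homer1* had a log2 fold change of 0.09. *Dlgap3*, the most abundant Dlgap per length at 27.2 CPM per kb in Het, stood at 112.8 CPM in WT, at 131.2, 119.1 and 118.4 in Het, and at 159.5, 149.7 and 131.4 in KO. Here too KO3 was barely above Het1 (log2 fold change 0.26, SE 0.08, edgeR adjusted p = 0.0808). *Dlgap1* had a larger log2 fold change of 0.50 with a wide spread (SE 0.14, edgeR adjusted p = 0.0721), and *Dlgap2* and *Dlgap4* overlapped between Het and KO.

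CaMKII is the calcium-activated kinase that phosphorylates AMPA receptors. *Camk2d* stood at 70.2 CPM in WT, at 72.1, 68.7 and 65.9 in Het, and at 86.9, 85.7 and 84.0 in KO. WT lay among the Het libraries and KO above them (log2 fold change 0.31, SE 0.04, edgeR adjusted p = 0.00798), with an adjusted p of 0.0511 without Het2. *Camk2g*, the most abundant per length at 9.75 CPM per kb in Het, stood at 68.2 CPM in WT, at 63.7, 62.3 and 61.2 in Het, and at 61.8, 65.0 and 63.6 in KO. Het and KO overlapped (log2 fold change 0.02, SE 0.03, edgeR adjusted p = 0.622). *Camk2b* had a log2 fold change of 0.36 without overlap and was not called (adjusted p 0.0765). *Camk2a*, the main subunit of mature forebrain neurons, was low throughout and highest in Het1, at 8.84 CPM against 6.41 to 6.61 in the other Het libraries. Its log2 fold change was -0.06, and 0.11 without Het1.

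Neuroligins and Lrrtm proteins sit on the receiving side of the synapse and bind neurexins on the sending side. *Lrrtm1* stood at 19.2 CPM in WT, at 20.4, 18.8 and 19.2 in Het, and at 31.0, 24.5 and 25.9 in KO. WT lay among the Het libraries and KO above (log2 fold change 0.48, SE 0.09, edgeR adjusted p = 0.0247), with adjusted p of 0.102 without Het2 and 0.0909 without Het3. *Nrxn3*, a neurexin, stood at 41.2 CPM in WT, at 34.7, 34.0 and 32.1 in Het, and at 49.5, 45.3 and 38.0 in KO. KO lay above Het but WT lay inside the KO range (log2 fold change 0.40, SE 0.09, edgeR adjusted p = 0.0433). *Nlgn3* stood at 16.6 CPM in WT, at 19.3, 18.6 and 18.9 in Het, and at 25.4, 23.2 and 21.4 in KO. WT was lowest and KO highest (log2 fold change 0.30, SE 0.07, edgeR adjusted p = 0.0366). Without Het1, Het2, Het3, KO1 or KO2 in turn neither of these last 2 was called, at adjusted p of 0.0716 to 0.137 for *Nrxn3* and 0.0518 to 0.130 for *Nlgn3*. In the GENCODE vM21 annotation 41.2% of the exonic bases of *Nlgn3* also belong to a gene on the same strand, so its reads are partly uncertain.

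*Nlgn2*, the neuroligin of inhibitory synapses, was the most abundant of the 46 genes per length, at 41.8 CPM per kb in Het. It stood at 226.4 CPM in WT, at 248.9, 238.8 and 236.9 in Het, and at 243.4, 247.2 and 221.2 in KO. The groups overlapped (log2 fold change -0.03, SE 0.05, edgeR adjusted p = 0.754), and the log2 fold change was 0.03 without KO3. *Nlgn1*, the neuroligin of excitatory synapses, and *Nrxn2* also overlapped, at log2 fold changes of -0.07 and 0.23. *Gphn*, whose product gephyrin anchors glycine and GABA receptors, stood at 44.0 CPM in WT, at 44.0, 43.6 and 42.9 in Het, and at 48.6, 48.1 and 47.4 in KO. KO lay above WT and Het by a small and even step (log2 fold change 0.14, SE 0.03, edgeR adjusted p = 0.0212), under the fold limit.

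**Figure D3:**
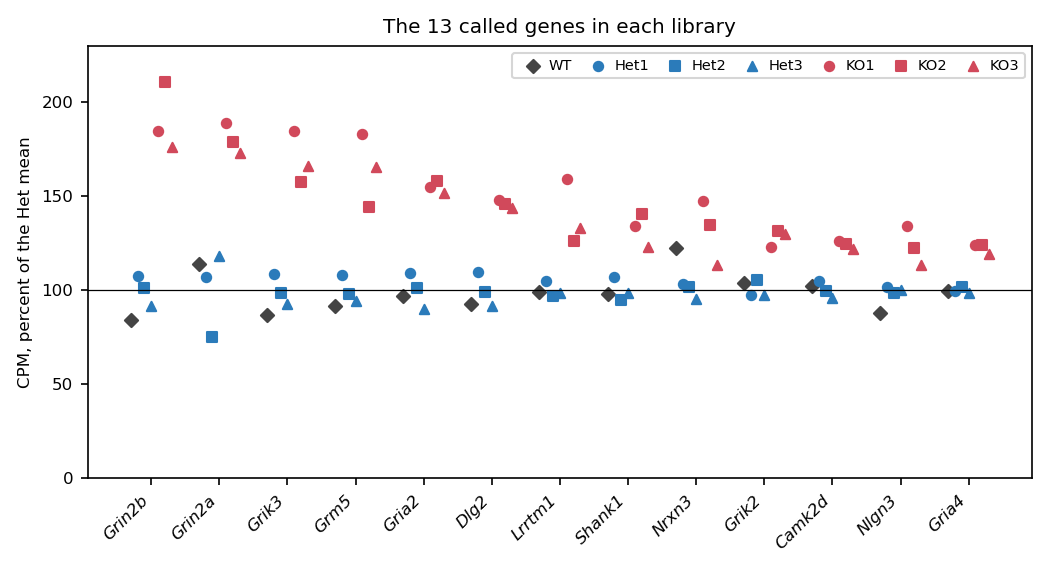
CPM of the 13 called genes in each library as a percent of the mean of the 3 Het libraries (horizontal line), ordered by fold change. Every KO point lies above every Het point of its gene, from *Grin2b* at 190.3% on average to *Gria4* at 122.3%, and the WT point of *Nrxn3* lies among its KO points.

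Levels per length did not follow the order of the fold changes. In Het, *Nlgn2*, *Dlgap3*, *Grik5* and *Dlgap4* led at 41.8, 27.2, 23.7 and 19.95 CPM per kb, and none of them was called. The 9 highest were not called, and the highest called gene was *Gria4* at 9.30 CPM per kb. At the low end stood *Grin2a*, *Dlgap2*, *Grm5*, *Grin2b* and *Grik1*, at 0.0550, 0.195, 0.233, 0.239 and 0.310 CPM per kb, of which *Grin2a*, *Grm5* and *Grin2b* were called. As neighbours in that order, *Grm5* and *Grin2b* differed by less than the spread of their Het libraries. Spread between replicates was small for most members, with a median coefficient of variation of 4.53% in Het and 7.48% in KO, and up to 22.5% in Het for *Grin2a*.

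**Figure D4:**
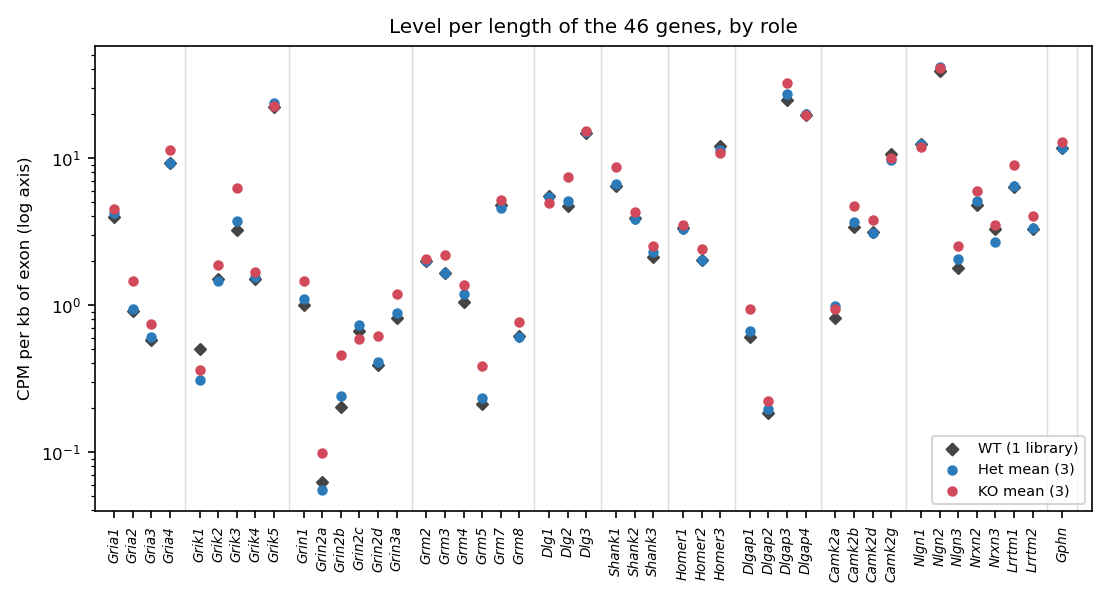
Level of each of the 46 genes in CPM per kb of exon on a log axis, grouped by role, for the WT library and the means of 3 Het and 3 KO libraries. *Nlgn2* is highest and *Grin2a* lowest at 41.8 and 0.0550 CPM per kb in Het, and the highest called gene is *Gria4* at 9.30.

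Genes that work beside the members were described from lists chosen by function. Of 14 auxiliary subunits of AMPA and kainate receptors, 3 rose and 0 fell, with a median log2 fold change of 0.03: *Cacng2*, which brings AMPA receptors to the synapse (0.41, edgeR adjusted p = 0.00624), *Cacng3* (0.46, adjusted p 0.0485) and *Shisa6* (0.64, adjusted p 0.0469). Of 11 genes of glutamate transport and synthesis, 2 rose and 0 fell (median 0.25), the transporters *Slc1a1* (0.73, edgeR adjusted p = 0.0333) and *Slc1a7* (0.76, adjusted p 0.0271). Of 21 further genes of the postsynaptic density, 3 rose (median 0.10), including *Nptx1*, which clusters AMPA receptors (0.33, edgeR adjusted p = 0.0132), and *Anks1b* (0.38, adjusted p 0.0211). Of 18 further adhesion genes, 3 rose and 0 fell (median -0.0056), led in level by *Slitrk2* (0.49, edgeR adjusted p = 0.0192).

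Inhibitory receptors moved too. Of 16 GABA and glycine receptor genes, 5 rose and 0 fell, with 15 above 0 and a median log2 fold change of 0.37, above the 0.26 of the glutamate set; the difference was not tested. *Gabra2* (0.71, edgeR adjusted p = 0.0192), *Gabrb2* (0.45, adjusted p 0.00881) and *Glrb* (0.40, adjusted p 0.0124) were the most abundant of the 5.

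Markers of some retinal cell types also differed between Het and KO, in both directions. Summed over 10 amacrine markers the Het libraries held 392.9 to 433.8 CPM and the KO libraries 535.4 to 588.7 CPM, and 5 of the 10 were called higher. Over 10 photoreceptor markers the ranges were 570.0 to 644.3 and 751.5 to 888.8 CPM, with 7 called higher, and over 12 ganglion cell markers 2760 to 2884 and 2308 to 2653 CPM, with 1 called higher and 2 lower. The part of these lists in the results on receptors and scaffolds was not tested. Sums over 10 retinal progenitor markers overlapped, at 6748 to 6970 and 6741 to 7052 CPM, with 2 called lower, as did those over 5 horizontal (205.9 to 215.7 and 201.5 to 220.9, 1 called higher) and 5 bipolar markers (57.4 to 150.6 and 35.5 to 73.7, 0 called). Over 5 Müller glia markers they were 372.3 to 424.6 and 430.4 to 483.8 CPM, with 1 called higher. *Ccnd1*, not called, was the largest part of the progenitor sum, at 2872 to 2912 CPM in Het and 2944 to 3290 in KO. The 2 progenitor markers called lower were *Fgf15* and *Sfrp2*, while 5 of the 10 had log2 fold changes above 0. *Tfap2b*, called higher, was the largest part of the amacrine sum, at 189 to 214 CPM in Het and 275 to 314 in KO. The spread of the bipolar sum lay mostly in *Trpm1*, at 117.0 CPM in Het1 and 4.44 to 41.9 CPM in the other libraries. Het1 also held the most pigment epithelium markers, and the part of that tissue in *Trpm1* was not tested.

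Other tissues were also seen in the pools. Het1 held 322.9 CPM over 14 skeletal muscle markers and 519.6 over 6 pigment epithelium markers, against 10.41 to 13.02 and 19.1 to 58.7 in the other libraries, and without Het1 11 members were called higher. Microglia (8 markers, 2 called higher) summed to 45.1 to 63.2 CPM in Het and 65.8 to 86.6 in KO. Endothelial markers differed in direction, with 2 of 6 above 0, a median log2 fold change of -1.27 and 1 called higher. *Kdr*, which retinal progenitors also express, was the one called (log2 fold change 0.44, edgeR adjusted p = 0.0186) and made up most of the sum, which was 387.0 to 406.2 CPM in Het and 483.8 to 580.1 in KO, while *Pecam1*, *Cdh5*, *Tek* and *Flt1* had log2 fold changes of -1.45, -1.73, -1.40 and -1.15 and were not called. Erythroid (6 markers, 187.4 to 526.4 and 24.0 to 296.9 CPM) and lens markers (6 markers, 23.7 to 78.3 and 2.52 to 57.4 CPM) varied between pools, with 0 called in either list. The lens list had a median log2 fold change of 0.13, with 4 of 6 above 0, while its sum was lower in KO on average. No marker was at 0 in all libraries. How far these tissues enter the members' values was not tested.

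**Figure D5:**
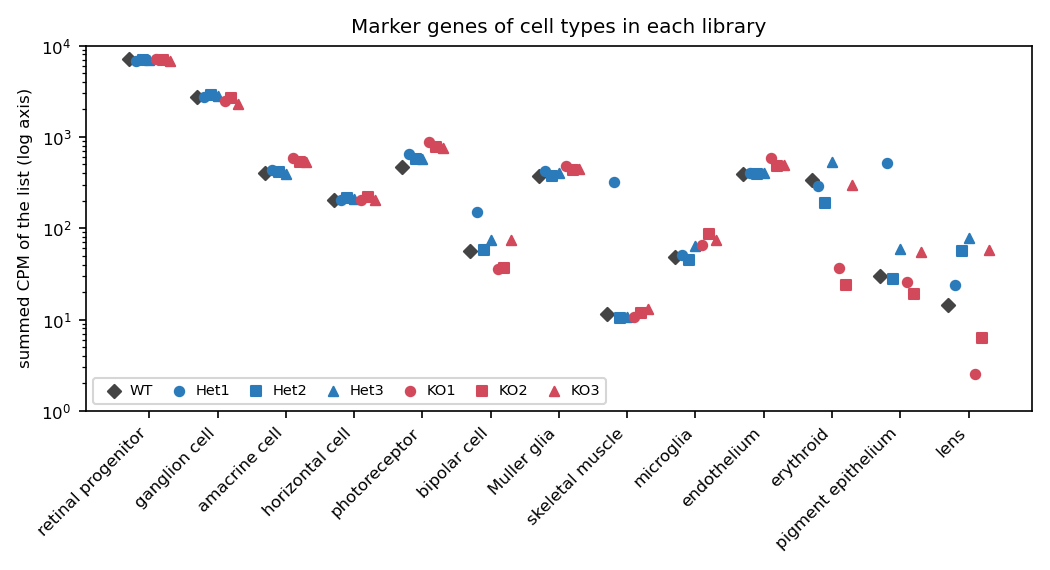
Summed CPM of marker genes of 13 cell types in each of the 7 libraries, on a log axis. The KO points lie above the Het points for amacrine and photoreceptor markers and below them for ganglion cell markers, and Het1 stands apart for muscle and pigment epithelium.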

How the data were processed

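Stranded mRNA libraries (7) came from pools of E16 retinas. The labels name TRIzol for RNA extraction and the methods a column kit. The authors aligned reads to mm10 in the rMATS-turbo pipeline, which runs STAR, and took gene counts with featureCounts, and the deposited values are whole-number counts per gene without normalization. Whether counting used strand, and how it treated reads of several origins, is not given in the sources used here. 0 value columns lacked a sample.

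The test used edgeR 4.0.16 (R 4.3.3): filterByExpr on genotype (20019 genes), TMM, and 1 quasi-likelihood fit (glmQLFit, glmQLFTest, not robust) over 7 libraries, KO against Het, with Benjamini-Hochberg adjustment over all genes tested. The SE is the log2 fold change over the square root of F. Groups follow the genotype labels. Precision is limited by 3 pools a group, and no pair of replicates was a copy by a chi-square test of counts. The scripts were tested on simulated data. Exon lengths and overlaps come from GENCODE vM21 (GRCm38), matched by gene ID for all 46 members. Alternatives were DESeq2 1.42.0, RLE and upper-quartile normalization, 2 other filters, a block by replicate number, a fit of the 6 libraries without WT, glmTreat, the adjusted p alone, each library left out, and shares without length. Values in every library are given for called members and for the most abundant per length of each role, and at most the 3 most abundant called genes of another list are named. Members and lists were chosen with earlier results of these data known. Splicing was not analysed here. Of the further postsynaptic density genes, 1 is left out of the account.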

Additional observations from a re-analysis of the deposited data

How the results depend on the processing

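Of the 195 combinations of a called member and an alternative, 159 kept the call, 36 lost it and 0 changed direction. Of 495 combinations for members not called, 29 gained a call, in 13 members. The number of members called higher was 13, and 20 by DESeq2, 4 by glmTreat and 6 to 20 with 1 library left out (6 without Het2 or Het3, 8 without KO2, 11 without Het1 or KO1, 20 without KO3). It stayed within 1.5 times of 13 under the other alternatives, and 0 members were called lower in each. Over all genes 1445 were called, and 217 by glmTreat, 2221 at the adjusted p alone and 386 to 1673 with 1 library left out. The *Ptbp1* log2 fold change was -3.04 under glmTreat (edgeR adjusted p = 0.103), and ran from -3.70 without KO3 to -2.56 without KO2. With 1 library left out, the log2 fold change changed sign in 4 members that were not called: *Gria1* (-0.012 to 0.177), *Grm2* (-0.0281 to 0.161), *Camk2a* (-0.139 to 0.107) and *Nlgn2* (-0.0567 to 0.0251). The median log2 fold change of the members ran from 0.22 to 0.28. The causes were not tested. Without division by length, 55 of 60 subunit shares moved by more than their spread between replicates.

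Deviations from the group mean correlated at -0.12, 0.26 and 0.02 between same-numbered Het and KO libraries. Between libraries of different number the correlations ran from -0.35 to 0.22. With 3 pools a group, these values cannot decide whether the numbers pair the libraries. With the replicate block 16 members and 1268 of all genes were called, and 12 of the 13 members kept their call.

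Depth limits only the scarcest members, such as *Grin2a* and *Dlgap2*, at under 250 counts in each library. In the annotation, *Homer3*, *Grin1*, *Grin2d*, *Grm2* and *Nlgn1* share 9.16% to 25.4% of their exonic bases with antisense genes. Whether reads there were counted for the wrong gene was not examined.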
